A study of Mus musculus with 10 samples.

Results

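The hypothalamic neuropeptide genes Oxt, Avp, Pomc, Agrp, Hcrt, Pmch, Trh, Gnrh1, Cartpt and Ghrh were followed in brain RNA of Slc20a2-HO mice. These 10 genes were found by symbol among the 54532 genes of the count table, and all 10 were found; they were chosen by name as a readout of how much hypothalamus the sequenced tissue held. All 10 mice were homozygous for the Slc20a2 knockout, a model of brain calcification, and no wild-type mouse was analysed here. From the age of 1.5 months, FTY720-treated mice (n = 6) received intraperitoneal FTY720, a modulator of sphingosine-1-phosphate receptors, at 0.5 mg/kg in dimethyl sulfoxide, and placebo mice (n = 4) received dimethyl sulfoxide alone, for 12 weeks; RNA of part of each brain was then sequenced. The name of each mouse holds F or P for the treatment, a digit, and a number. The digit was 1 in 4 mice (F1-622, F1-624, F1-918 and P1-623) and 3 in 6 mice (F3-609, F3-612, F3-908, P3-612, P3-904 and P3-907), and the labels do not say what it stands for.

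Neuropeptides are cut from larger precursors in the secretory granules of neurons, and the genes studied here are each expressed in small groups of hypothalamic neurons, some of them also elsewhere in the brain or in the pituitary. Magnocellular neurons of the paraventricular and supraoptic nuclei make oxytocin (Oxt) or vasopressin (Avp) and release them from the posterior pituitary. Arcuate neurons make the melanocortin precursor (Pomc), which restrains feeding, or agouti-related peptide (Agrp), which drives it, and lateral hypothalamic neurons make orexin (Hcrt) or melanin-concentrating hormone (Pmch), regulators of wakefulness and feeding. Trh, Gnrh1 and Ghrh encode releasing hormones that act on the thyroid, reproductive and growth axes through the anterior pituitary, and Cartpt encodes the CART peptide of feeding and reward circuits. In bulk RNA, fewer cells of a type and less RNA per cell cannot be told apart.

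Oxt and Avp are neighbours on mouse chromosome 2 and face each other. In GRCm38, Oxt (ENSMUSG00000027301) lies on the plus strand at chr2:130576173-130577054 and Avp (ENSMUSG00000037727) on the minus strand at chr2:130580620-130582554. Their coding sequences are alike over 269 bases of exons 1 and 2, which encode the hormone and most of its carrier neurophysin, and 245 of these bases (91.1%) are identical. The stretch is shown because the 2 genes had the highest levels per gene length of the 10 and because reads from it bear on how the counts divide between them. Capitals mark bases that are identical in both genes; the Oxt stretch spans chr2:130576259-130576788 (plus strand) and the Avp stretch chr2:130581060-130582480 (minus strand), each with an intron removed.
Oxt: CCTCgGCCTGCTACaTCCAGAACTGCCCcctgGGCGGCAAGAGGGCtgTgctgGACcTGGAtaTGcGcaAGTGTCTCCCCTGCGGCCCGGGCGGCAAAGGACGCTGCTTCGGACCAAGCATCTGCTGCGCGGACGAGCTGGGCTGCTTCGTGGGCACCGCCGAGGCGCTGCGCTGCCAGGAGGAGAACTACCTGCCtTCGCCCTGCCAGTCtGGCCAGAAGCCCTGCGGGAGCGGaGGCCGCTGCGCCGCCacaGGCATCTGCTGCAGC
Avp: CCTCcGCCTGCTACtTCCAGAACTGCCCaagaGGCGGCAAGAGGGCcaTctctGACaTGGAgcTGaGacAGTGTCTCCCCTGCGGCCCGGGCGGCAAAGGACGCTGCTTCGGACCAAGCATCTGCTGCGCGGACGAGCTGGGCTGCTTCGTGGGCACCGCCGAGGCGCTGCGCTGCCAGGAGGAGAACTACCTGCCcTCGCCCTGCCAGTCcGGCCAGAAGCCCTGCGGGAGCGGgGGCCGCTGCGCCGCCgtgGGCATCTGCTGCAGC
The longest identical run in it was 127 bases, bases 156 to 282 of the Oxt transcript (537 bases) and 144 to 270 of the Avp transcript (577 bases). A read that lies wholly within this run could have come from either gene, so the summed counts are given beside the separate ones below.

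The upstream sequences of these neighbours were less alike. The RefSeq windows of 250 bases before the start (GRCm38.p6; Oxt chr2:130575919-130576168, plus strand; Avp chr2:130582589-130582838, minus strand) are shown because the pair differed in its change between the libraries. Capitals mark TGACC on either strand (GGTCA as printed on the other strand), the core of many nuclear receptor sites, and CATAAA, a variant of the TATA box; no marked copies overlap.
Oxt: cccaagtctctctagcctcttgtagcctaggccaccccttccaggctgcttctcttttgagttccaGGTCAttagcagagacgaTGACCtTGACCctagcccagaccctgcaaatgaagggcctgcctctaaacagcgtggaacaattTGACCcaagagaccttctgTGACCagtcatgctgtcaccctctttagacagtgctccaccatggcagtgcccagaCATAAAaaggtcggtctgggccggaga
Avp: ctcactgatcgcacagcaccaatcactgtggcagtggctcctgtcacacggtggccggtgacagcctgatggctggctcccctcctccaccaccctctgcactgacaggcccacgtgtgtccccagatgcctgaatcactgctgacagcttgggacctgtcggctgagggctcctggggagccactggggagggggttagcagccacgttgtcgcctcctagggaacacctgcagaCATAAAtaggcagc
Oxt had 5 copies of TGACC and Avp 0, and each had 1 copy of CATAAA. Of 32851 RefSeq windows of this length, 35.2% held at least 1 TGACC, 0.0426% held 5 or more, and 5.98% held CATAAA. RefSeq windows were matched for 8 of the 10 genes, not for Agrp and Gnrh1. TGACC was found once in each window of Pomc, Trh, Cartpt and Ghrh and in neither that of Hcrt nor that of Pmch. These matches describe letters only and were not tied to any measured level.

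Counts summed over all genes ran from 14772745 to 18303981 in the 10 libraries (median 16653895). No 2 libraries agreed within sampling noise: in a chi-square test of the top 5000 genes, the statistic divided by its degrees of freedom was at least 16.1 in each of the 45 pairs. The targeted gene, Slc20a2, had between 89 and 154 counts in the digit 1 mice and between 194 and 294 in the digit 3 mice, in whole-gene counts that do not divide by exon. The libraries fell into 2 sets by the digit. Of 12 genes fixed as markers of cerebellum and hindbrain, 3 (Hoxa5, Hoxb5 and Hoxc4) had 0 counts in every digit 1 mouse and passed the filter through the digit 3 mice alone. The other 9 were higher in the digit 3 mice, 8 of them past an adjusted p of 0.05, and the summed level was between 213 and 298 CPM (counts relative to library size, by TMM) in the digit 1 mice and between 1208 and 1326 CPM in the digit 3 mice. The FTY720 comparison was therefore made within the digit 3 mice (3 against 3), and the digits were compared with treatment as a covariate.

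Oxt showed the largest difference of the peptide genes between the 2 sets of libraries. The digit 1 mice had 540 (F1-622), 470 (F1-624), 692 (F1-918) and 631 (P1-623) Oxt counts, and the digit 3 mice had 104 (F3-609), 26 (F3-612), 112 (F3-908), 203 (P3-612), 73 (P3-904) and 128 (P3-907). Every digit 3 mouse was below every digit 1 mouse, and F3-612 was lowest and P3-612 highest of the digit 3 mice. The mean level was 37.1 ± 6.49 CPM (SD, n = 4) with digit 1 and 6.26 ± 3.49 CPM (SD, n = 6) with digit 3, and Oxt was 6.64-fold lower with digit 3 (log2 fold change -2.73, SE 0.34, adjusted p = 0.000186 in the quasi-likelihood test of edgeR). The two-sided exact permutation test gave p = 0.00476, the smallest that 6 mice against 4 can give.

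Avp, the partner of Oxt in the magnocellular nuclei, overlapped between the sets. Its counts were 1090 (F1-622), 613 (F1-624), 840 (F1-918) and 466 (P1-623) in the digit 1 mice, and 172 (F3-609), 119 (F3-612), 391 (F3-908), 614 (P3-612), 164 (P3-904) and 405 (P3-907) in the digit 3 mice. P3-612 lay above P1-623 and F1-624 in level, and the other digit 3 mice lay below all digit 1 mice. Avp was 2.91-fold lower with digit 3 (log2 fold change -1.54, SE 0.45, adjusted p = 0.0239 from edgeR; exact permutation p = 0.0286). This call was lost when F1-622 (log2 fold change -1.24, adjusted p = 0.0551), F1-918 (-1.51, 0.0521), F3-609 (-1.33, 0.0887) or F3-612 (-1.23, 0.0695) was left out, and it held without each of the other mice.

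The level of Oxt was also set against Avp and the other peptide genes, as a description with no test, since Oxt was taken for its large difference. Oxt made up between 33.1% (95% exact interval 30.8 to 35.5, F1-622) and 57.5% (54.5 to 60.5, P1-623) of the Oxt and Avp counts in the digit 1 mice, and between 17.9% (12.1 to 25.2, F3-612) and 37.7% (31.9 to 43.7, F3-609) in the digit 3 mice. F3-609 was the only digit 3 mouse whose share exceeded that of a digit 1 mouse. The log2 level of Oxt minus that of Avp was -0.31 ± 0.59 (SD, n = 4) with digit 1 and -1.50 ± 0.49 (SD, n = 6) with digit 3, a difference of -1.19. Against the other 8 peptide genes, the difference of Oxt ran from -1.51 (Pomc) to -2.91 (Gnrh1). These ratios were chosen after the values were seen. The summed level of Oxt and Avp does not depend on how reads counted for the pair were divided between the 2 genes. Reads counted for neither gene would be missing from it, and how shared reads were treated is not given. It was between 63.7 and 115 CPM with digit 1 and between 8.42 and 48.5 CPM with digit 3 (log2 difference -2.0, exact permutation p = 0.0143), with no overlap.

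**Figure D1:**
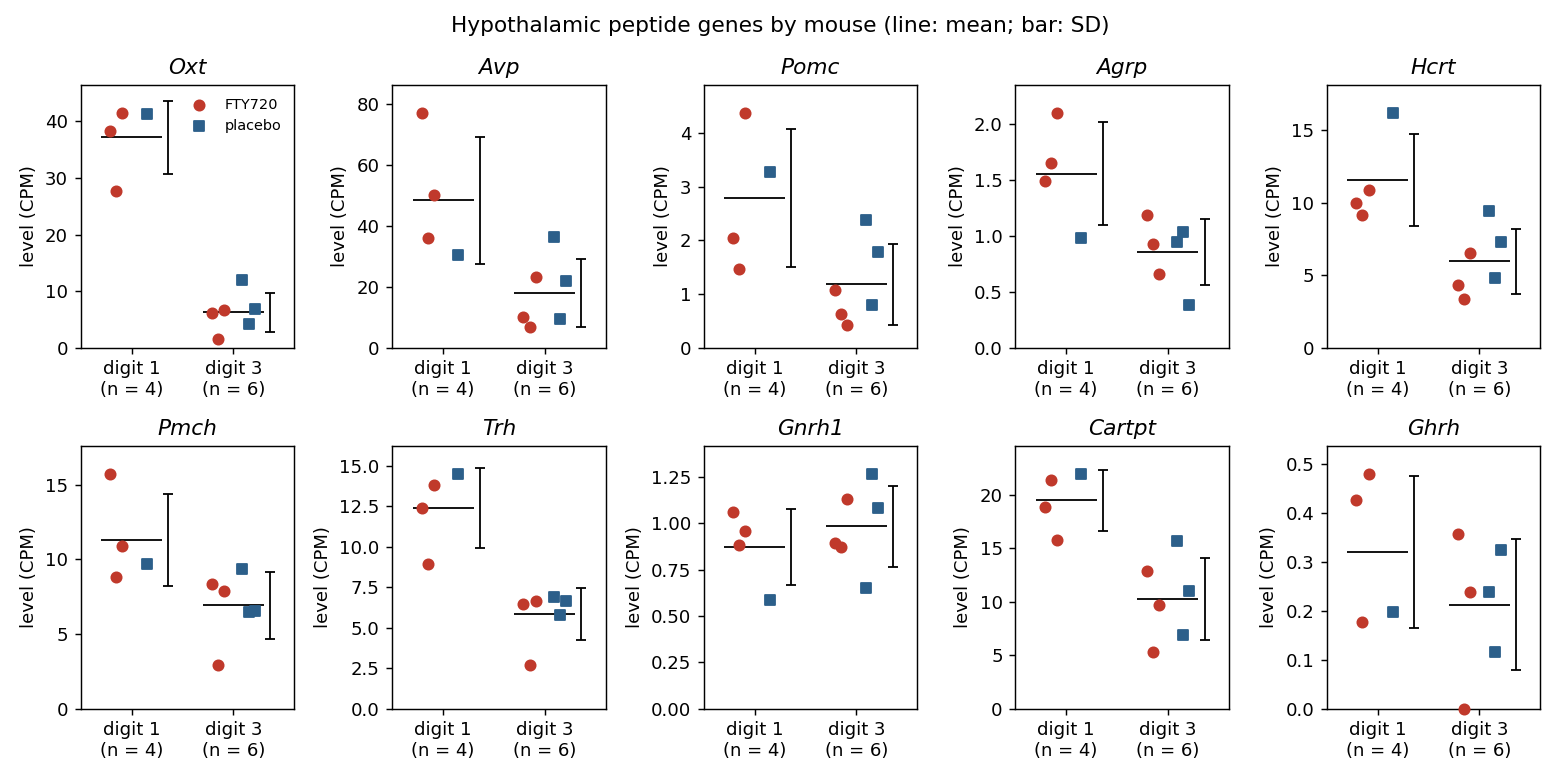
Level of each peptide gene in every mouse (y axis, CPM scaled by TMM, from 0), by digit (x axis, 4 and 6 mice); circles are FTY720 and squares placebo, lines are means and bars SD. Oxt, Trh and Cartpt are lower in all 6 digit 3 mice than in any digit 1 mouse, the other genes overlap, and the means of Gnrh1 are 0.873 and 0.983 CPM.

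In the lateral hypothalamic pair, Hcrt passed the test and Pmch did not. Hcrt had 141, 155, 181 and 247 counts in F1-622, F1-624, F1-918 and P1-623, and 73, 58, 109, 159, 83 and 135 in F3-609, F3-612, F3-908, P3-612, P3-904 and P3-907. Only P3-612, at 9.43 CPM, reached the digit 1 range, whose lowest mouse was F1-624 at 9.12 CPM. Hcrt was 2.16-fold lower with digit 3 (log2 fold change -1.11, SE 0.21, adjusted p = 0.00254 from edgeR).

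Pmch had 222, 150, 182 and 148 counts in the digit 1 mice in the same order, and 140, 50, 132, 158, 112 and 121 in the digit 3 mice. The sets overlapped through P3-612, and F3-612 lay far below the others. The log2 fold change was -0.72 (SE 0.28, unadjusted p = 0.0216, adjusted p = 0.0670 from edgeR), and it passed the threshold when P3-612 was left out (-0.79, adjusted p = 0.0333).

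Of the releasing hormone genes, Trh passed the test, Gnrh1 did not, and Ghrh had too few counts for edgeR. Trh had 175, 152, 231 and 222 counts in the digit 1 mice and 109, 46, 112, 116, 101 and 123 in the digit 3 mice. Every digit 3 mouse was lower than every digit 1 mouse, and 5 of the 6 lay within a narrow band of 5.82 to 6.88 CPM while F3-612 was at 2.67 CPM. Trh was 2.23-fold lower with digit 3 (log2 fold change -1.16, SE 0.22, adjusted p = 0.00304 from edgeR; exact permutation p = 0.00476).

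Gnrh1, which is made by scattered preoptic neurons, had 15, 15, 16 and 9 counts in the digit 1 mice and 15, 15, 19, 11, 22 and 20 in the digit 3 mice. The sets overlapped almost entirely, and Gnrh1 was the only tested peptide gene with a higher mean in digit 3 (log2 fold change 0.22, SE 0.31, adjusted p = 0.615 from edgeR). Without P1-623, the lowest of the 10 mice, the log2 fold change was -0.0022. Ghrh had between 3 and 8 counts in the digit 1 mice and between 0 and 6 in the digit 3 mice, did not pass the filter on low counts, and had an exact permutation p of 0.319. The count of 0, in F3-612, allows up to 3 counts, and with so few counts the difference in Ghrh is poorly resolved.

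Of the arcuate genes, Pomc was lower and Agrp did not pass the test. Pomc had 29, 25, 73 and 50 counts in the digit 1 mice and 18, 11, 7, 40, 14 and 33 in the digit 3 mice. P3-612 and P3-907 lay within the digit 1 range, and the other digit 3 mice lay below it. Pomc was 2.92-fold lower with digit 3 (log2 fold change -1.54, SE 0.41, adjusted p = 0.0161 from edgeR; exact permutation p = 0.0476), and the call was lost without the treatment covariate (-1.23, adjusted p = 0.0520).

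Agrp had 21, 28, 35 and 15 counts in the digit 1 mice and 20, 16, 11, 16, 18 and 7 in the digit 3 mice. The lowest digit 1 mouse, P1-623, and the highest digit 3 mice overlapped. The log2 fold change was -0.73 (SE 0.33, adjusted p = 0.112 from edgeR). The annotated span of Agrp in GRCm38, chr8:105566698-105637393 on the minus strand, shares exons with Ctcf on the plus strand and Gm5914 on the minus strand, and the strand setting of the counting is not given in the sources used here, so reads of these genes may not be separable. The same holds for Pmch (chr10:88091072-88092375, plus strand) and Parpbp on the minus strand; the other 8 peptide genes shared no exon with another gene.

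Cartpt had 266, 364, 263 and 336 counts in the digit 1 mice and 217, 91, 163, 264, 120 and 204 in the digit 3 mice. In level the sets were adjacent but did not overlap, the highest digit 3 mouse, P3-612, lying just under the lowest digit 1 mouse, F1-918, both at 15.7 CPM after rounding. Cartpt was 1.99-fold lower with digit 3 (log2 fold change -0.99, SE 0.24, adjusted p = 0.0107 from edgeR), and this call was lost without P1-623 (-1.01, adjusted p = 0.0576).

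In all, 8 of the 9 tested peptide genes had a log2 fold change under 0 with digit 3, where 50.9% of all tested genes did, with a median log2 fold change of -1.11 beside -0.0107 over all 17665 genes tested. Of the 9, 6 were lower past an adjusted p of 0.05, where 14.4% of all tested genes were, and 0 were higher, where 13.9% were (28.4% in either direction). At an unadjusted p under 0.05, 8 were lower, where 21.4% of all genes were (41.4% in either direction). Without overlap of the sets, 3 were lower, where 6.44% of all genes were, and 0 higher, where 7.79% were. The digit 3 libraries also held the cerebellar RNA described above, and a digit cannot be told apart from whatever else distinguishes these mice. What the cerebellar RNA contributed to the differences was not tested. The levels were also set against other brain lists, as a description with no test, chosen after the values were seen. Relative to the summed level of 22 hypothalamic transcription factors, Oxt was lower by 2.24 on the log2 scale with digit 3 (means -3.77 with digit 3 and -1.52 with digit 1). Relative to the cortex, striatum and pan-neuronal lists, Oxt differed by -2.26, -2.41 and -2.65. All 6 digit 3 mice were below every digit 1 mouse each time, as in the level of Oxt itself. The 4 values share the same Oxt levels and are not separate support. Against the transcription factors, Avp differed by -1.06, and the other peptide genes ran from -0.73 (Pomc) to 0.67 (Gnrh1). Trh differed by -1.0 against the neuronal list.

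**Figure D2:**
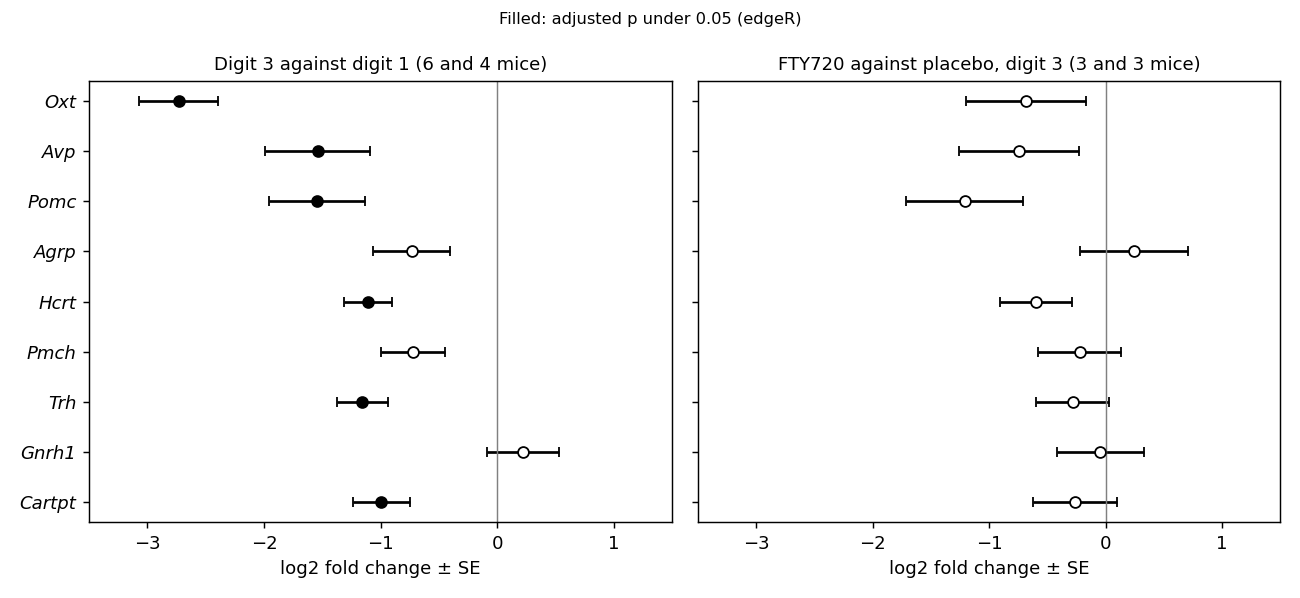
Log2 fold change with its standard error (x axis) of the 9 tested peptide genes (y axis), for digit 3 against digit 1 on the left and for FTY720 against placebo within digit 3 on the right; filled points have an adjusted p under 0.05 in edgeR. On the left 6 genes are filled and Oxt stands lowest at -2.73, and on the right none is filled.

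The other hypothalamic lists were lower as well, with medians nearer to 0. Beside the counts below, 14.4% of all tested genes were lower and 13.9% higher past the adjusted threshold. Of 15 tested hypothalamic transcription factors (22 listed), 7 were lower with digit 3 and 0 higher past the adjusted threshold, with a median log2 fold change of -0.50, among them Lhx6 (-0.67, adjusted p = 0.0027 from edgeR) and Nkx2-1 (-1.37), a determinant of the ventral hypothalamus. Their summed level was between 101 and 114 CPM with digit 1 and between 63.2 and 80.0 CPM with digit 3, without overlap. Of 5 tested other peptides (13 listed), 3 were lower, namely Tac2 (-0.84), which encodes neurokinin B, Vip (-0.56) and galanin (Gal, -1.41), and 0 were higher. Of 15 other hypothalamic markers, 5 were lower, namely Irs4 (-1.11), Ecel1 (-1.09, adjusted p = 0.000215 from edgeR), Crym (-0.88), Baiap3 (-0.77) and Hap1 (-0.60), and 2 were higher, the leptin receptor Lepr (0.65) and Vcan (0.47). Medians of the cortex and hippocampus, striatum, thalamus, neuron and choroid plexus lists were also below 0. In the cortex and hippocampus list, 7 of 9 genes were lower and 1 higher (median -0.50). In the striatum list 7 of 9 were lower and 0 higher (median -0.39), and in the neuron list 3 of 10 were lower and 1 higher (median -0.10). The thalamus list had 1 of 9 lower and 1 higher (median -0.10), and the choroid plexus list 1 of 8 lower and 0 higher (median -0.29), near the shares over all genes. The thalamus sum was nevertheless higher in every digit 3 mouse (723 to 842 CPM) than in any digit 1 mouse (590 to 717 CPM). In that list Rora, Adarb1 and Calb2 had higher means and the other 6 genes lower ones. The part of the cerebellar RNA in this sum was not tested.

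Receptors of the peptides were followed as the partners through which these hormones act. Of 13 receptors, 9 were tested, 3 were lower with digit 3 and 0 higher past the adjusted threshold, beside the 14.4% and 13.9% of all genes. The oxytocin receptor Oxtr had between 121 and 195 counts with digit 1 and between 99 and 125 with digit 3 (log2 fold change -0.67, SE 0.14, adjusted p = 0.0049 from edgeR), and in level the sets did not overlap. The MCH receptor Mchr1 (-0.79, adjusted p = 0.000369) and the melanocortin receptor Mc3r (-1.17, adjusted p = 0.0274) were the other two, while Mc4r (-0.61), the orexin receptors Hcrtr1 (-0.02) and Hcrtr2 (0.61), Trhr (0.07), Trhr2 (-0.35) and the vasopressin receptor Avpr1a (-0.17) did not pass in edgeR. Gnrhr and Ghrhr, the pituitary receptors of Gnrh1 and Ghrh, had 0 or 1 count and 0 counts in every mouse.

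Genes that cut, pack or degrade the peptides were compared as 1 list. Of 15 tested, 6 were lower with digit 3 past the adjusted threshold and 2 higher, where 14.4% of all genes were lower and 13.9% higher. The convertase Pcsk2 (log2 fold change -0.46), the carboxypeptidase Cpe (-0.59), the amidating enzyme Pam (-0.35), the granule proteins Chga (-0.59) and Chgb (-0.45), and Pcsk1n (-1.09), which encodes proSAAS, were lower, and 2 peptidases, Trhde (0.46), which degrades TRH, and Lnpep (0.69), which degrades oxytocin and vasopressin, were higher. The convertase Pcsk1 differed by 0.31 (adjusted p = 0.154 from edgeR).

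Anterior pituitary markers had few counts. Of 10 pituitary markers only Tshb, with between 18 and 57 counts, passed the filter, and it was higher with digit 3 (log2 fold change 0.69, adjusted p = 0.0261 from edgeR). Gh and Prl, the most abundant pituitary hormones, had between 0 and 21 and between 0 and 9 counts, Fshb had 0 in every mouse, and the 10 markers summed to between 2.18 and 5.30 CPM. Pomc is also made in pituitary corticotrophs, whose factor Tbx19 had between 0 and 5 counts.

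**Figure D3:**
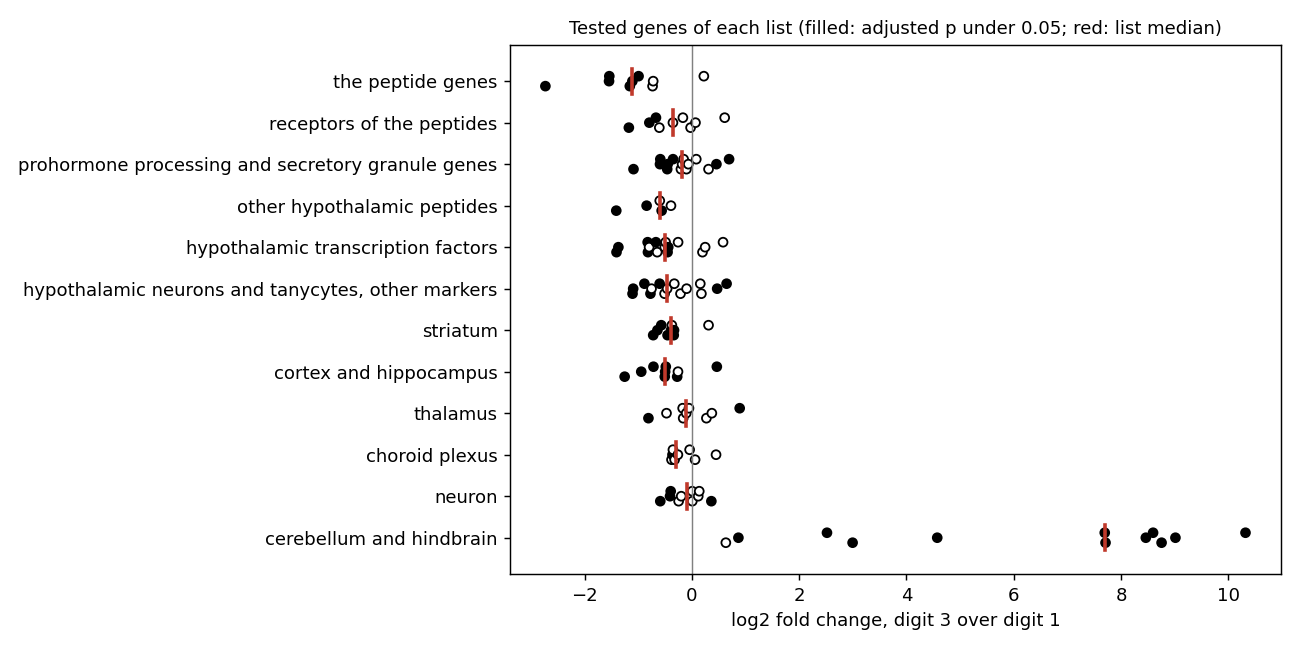
Log2 fold change of digit 3 over digit 1 (x axis) for the tested genes of each list (y axis); each point is a gene, filled where the adjusted p is under 0.05 in edgeR, and red lines are list medians. The peptide genes have a median of -1.11, the other lists drawn here but the cerebellar have medians between -0.60 and -0.10, and most cerebellar genes lie far to the right, 3 of them (Hoxa5, Hoxb5 and Hoxc4) with 0 counts in digit 1, so that their places and the list's line are not measured folds.

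Levels can be compared between genes only per length, for which the deposited FPKM (fragments scaled to gene length and library size) were used. In the digit 1 mice, the median level fell from Avp (74.1 FPKM) and Oxt (73.2 FPKM) to Cartpt (15.6), Hcrt (13.8), Pmch (13.6), Trh (9.40), Pomc (2.0), Agrp (1.53), Gnrh1 (1.42) and Ghrh (0.461 FPKM). Neighbours in this order were separated without overlap between Oxt and Cartpt, Pmch and Trh, Trh and Pomc, and Gnrh1 and Ghrh, and overlapped otherwise. In the digit 3 mice, Avp (27.6 FPKM) and Oxt (11.9 FPKM) again led, followed by Pmch (9.49), Cartpt (8.01), Hcrt (7.45), Trh (4.71), Gnrh1 (1.52), Agrp (0.921), Pomc (0.71) and Ghrh (0.352 FPKM). No neighbours in the digit 3 order were separated without overlap. Pomc, above Gnrh1 in the digit 1 order, lay below it in the digit 3 order, with overlap.

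**Figure D4:**
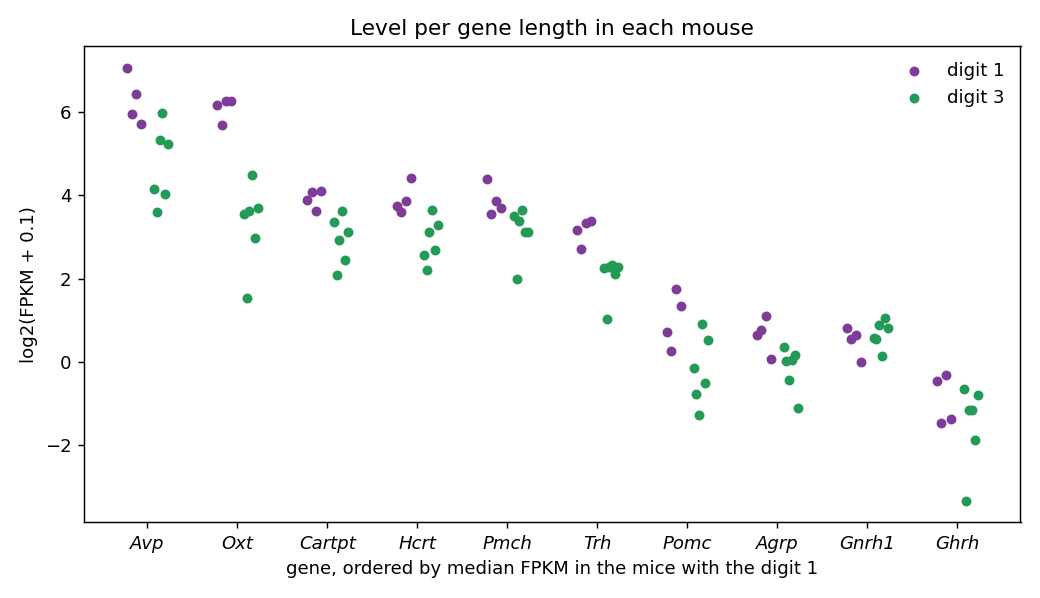
Level per gene length of the 10 peptide genes in each mouse (y axis, log2 of deposited FPKM plus 0.1), ordered by the median in the digit 1 mice (x axis); colours mark the digit. Avp and Oxt lie highest, at medians of 74.1 and 73.2 FPKM with digit 1 and 27.6 and 11.9 FPKM with digit 3.

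Treatment with FTY720 was compared with placebo within the digit 3 mice. No peptide gene passed an adjusted p of 0.05, where 0% of the 17656 genes tested did (edgeR, smallest adjusted p = 0.654). In DESeq2 5 genes did so, and 134 in edgeR with no filter on low counts, a setting with the limit described at the end. An unadjusted p under 0.05 was found for 1283 genes (7.27%), or between 388 (without F3-609) and 3896 (without P3-904) with each mouse left out. Pomc was the 1 peptide gene of 9 with an unadjusted p under 0.05, and it was lower, where 4.49% of all genes were, while 2.78% were higher. Its counts were 18, 11 and 7 with FTY720 and 40, 14 and 33 with placebo. P3-904, at 0.806 CPM, lay below F3-609, at 1.07 CPM, so that the groups overlapped. The level was 0.709 ± 0.332 CPM in the FTY720 mice (SD, n = 3) and 1.65 ± 0.791 CPM in the placebo mice (SD, n = 3; log2 fold change -1.21, SE 0.50, adjusted p = 0.654 from edgeR; exact permutation p = 0.2, where 0.1 is the smallest that 3 mice against 3 can give). The adjusted p of Pomc ranged from 0.400 to 0.99992 over the other settings and was 0.113 without P3-904, the smallest of any peptide gene under DESeq2, any other setting or any mouse left out, so that none passed the adjusted threshold.

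The magnocellular genes had lower means with FTY720 within a wide spread. Oxt had 104, 26 and 112 counts with FTY720 and 203, 73 and 128 with placebo, and Avp had 172, 119 and 391 with FTY720 and 614, 164 and 405 with placebo. In both genes F3-612 was lowest and P3-612 highest, and the other 4 mice were interleaved. The log2 fold change was -0.69 (SE 0.52, adjusted p = 0.702 from edgeR) for Oxt and -0.74 (SE 0.52, adjusted p = 0.681) for Avp. With each mouse left out, Oxt ranged from -0.997 (without F3-908) to -0.21 (without P3-612) and was -0.26 without F3-612, and Avp ranged from -1.39 (without F3-908) to -0.21 (without P3-612) and was -0.43 without F3-612. Their summed level was 18.3 ± 10.9 CPM in the FTY720 mice (SD, n = 3) and 30.3 ± 17.5 CPM in the placebo mice (SD, n = 3; exact permutation p = 0.5).

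No other peptide gene passed the test. Hcrt had a log2 fold change of -0.59 (SE 0.31, unadjusted p = 0.0868, adjusted p = 0.654 from edgeR; -0.89 without F3-908 and -0.34 without P3-612), and Trh (-0.28, SE 0.31), Cartpt (-0.26, SE 0.36), Pmch (-0.22, SE 0.36), Gnrh1 (-0.05, SE 0.37) and Agrp (0.24, SE 0.47) had adjusted p-values between 0.797 and 0.975. Thus 8 of the 9 tested genes had lower means with FTY720, where 50.8% of all genes did, and the median was -0.28 beside -0.0049 over all genes. No peptide gene was separated between the groups, where 6.43% of all genes were higher and 6.47% lower without overlap. Without F3-612 the log2 fold changes of Pmch (0.13), Trh (0.04), Cartpt (0.02) and Gnrh1 (0.02) were above 0, and without P3-612 that of Cartpt was 0.06. With all 10 mice and no term for the digit, Oxt (0.34) and Avp (0.47) also had higher means with FTY720 (adjusted p = 0.99992 from edgeR for both); the digit 1 was carried by 3 of 6 FTY720 mice and 1 of 4 placebo mice.

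The same comparison left no list past the threshold: 0 of the receptors, processing genes, other hypothalamic genes and regional markers had an adjusted p under 0.05 in edgeR. Of the processing genes, Pcsk1n (log2 fold change -0.64) and Chga (-0.43) had unadjusted p-values of 0.0421 and 0.0453. At that level, 2 cerebellar genes were higher and 1 lower, and 3 neuronal, 1 cortical and 1 striatal gene were lower, where 2.78% of all genes were higher and 4.49% lower. The summed hypothalamic transcription factors were at 71.3 ± 7.96 CPM in the FTY720 mice (SD, n = 3) and at 77.3 ± 2.32 CPM in the placebo mice (SD, n = 3). Beside these values, the summed cerebellar list was between 1268 and 1326 CPM with FTY720 and between 1208 and 1253 CPM with placebo, and the striatal list between 753 and 880 CPM and between 943 and 1041 CPM, each without overlap. The summed neuron list was also lower in every FTY720 mouse (6985 to 7165 CPM) than in any placebo mouse (7251 to 7561 CPM), while the thalamus, cortex and choroid plexus sums overlapped. Relative to the summed striatum list, FTY720 minus placebo within digit 3 ran from -0.83 (Pomc) to 0.50 (Agrp) over the peptide genes. Relative to the neuron list it ran from -1.0 (Pomc) to 0.32 (Agrp). These ratios were chosen after the values were seen and are a description. The part of the lists as a cause of the differences of the peptide genes was not tested.

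Whether the effect of FTY720 differed between the digits was tested by the interaction term, with only 1 placebo mouse in digit 1, which is assumed to vary like the mice of the other groups. No gene passed an adjusted p of 0.05 in edgeR and 345 genes (1.95%) had an unadjusted p under 0.05. The estimate for Avp was -1.58 (SE 0.87). Those of the other tested peptide genes ran from -0.90 (Pomc) to 0.10 (Hcrt), and Ghrh was not tested. With no filter on low counts some genes passed, Avp among them (-1.60), but that setting has the limit described at the end.

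The extremes within digit 3 were often the same 2 mice. F3-612 had the lowest level of the 6 in 7 of the 10 genes, and P3-612 had the highest in 7 of 10. The summed level of the 10 genes was 25.1 CPM in F3-612 and 94.0 CPM in P3-612, and between 116 and 177 CPM in the digit 1 mice. The summed hypothalamic transcription factors of F3-612 were also the lowest of the 6, at 63.2 CPM, while P3-612 was at 76.2 CPM in a range of 63.2 to 80.0 CPM.

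**Figure D5:**
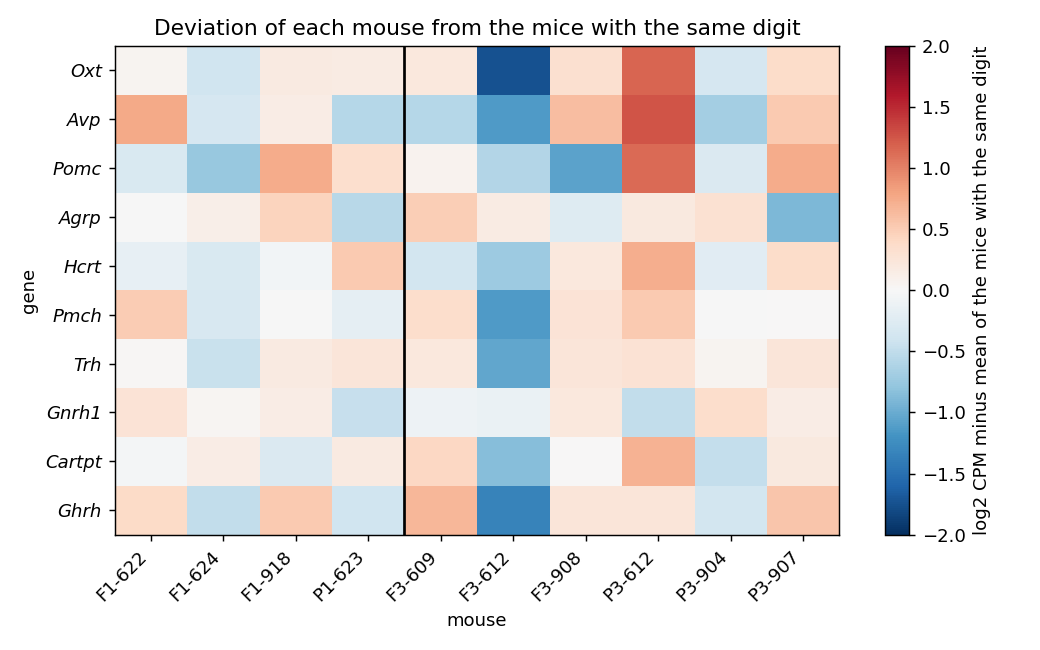
Deviation of each mouse (x axis) from the mean of the mice with the same digit, in log2 CPM (colour), for each peptide gene (y axis); the line divides digit 1 from digit 3. F3-612 is lowest of the digit 3 mice in 7 of 10 genes and P3-612 highest in 7 of 10.

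Of the 45 pairs of peptide genes, 6 with cells in a common nucleus were set aside for description across the 6 digit 3 mice, and the pairs of Trh with Oxt and Avp, and 3 pairs from different nuclei, were added after the values were seen. Oxt and Avp had a Pearson r of 0.87 (exact permutation p = 0.00833) and a Spearman rho of 0.94 (exact permutation p = 0.0167), and neither passed after adjustment over the 45 pairs (0.0813 and 0.150), and r was 0.76 without the 2 mice farthest from the median of Oxt. Oxt and Trh had r = 0.93 (exact permutation p = 0.00278, adjusted 0.0813) and rho = 0.94 (exact permutation p = 0.0167, adjusted 0.150), with r = 0.996 without the same 2 mice. Avp and Trh had r = 0.70 (exact permutation p = 0.0569, adjusted 0.171) and rho = 1.0 (exact permutation p = 0.00278, adjusted 0.125), with r = 0.77 without them. The 3 added pairs from different nuclei had an r as large or larger. Others from different nuclei had a lower one, such as Oxt with Pomc (r = 0.59) and Avp with Gnrh1 (r = -0.32). Avp and Hcrt had r = 0.98 (exact permutation p = 0.00972, adjusted 0.0813) and rho = 0.89 (exact permutation p = 0.0333, adjusted 0.214), with r = 0.94 without the same 2 mice. Pmch and Trh had r = 0.96 (exact permutation p = 0.0181, adjusted 0.0813) and rho = 0.83 (exact permutation p = 0.0583, adjusted 0.263), with r = 0.50 without them. Oxt and Pmch had r = 0.95 (exact permutation p = 0.0139, adjusted 0.0813) and rho = 0.77 (exact permutation p = 0.103, adjusted 0.330), with r = 0.45 without them. Hcrt and Pmch had r = 0.72 (exact permutation p = 0.0944, adjusted 0.224) and rho = 0.60 (exact permutation p = 0.242, adjusted 0.544), and r was -0.33 without F3-612 and P3-612, so that this relation rested on those mice. Pomc and Cartpt had r = 0.67 (exact permutation p = 0.151, adjusted 0.341) and rho = 0.77 (exact permutation p = 0.103, adjusted 0.330), with r = 0.79 without F3-908 and P3-612.

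The arcuate pairs rested on few counts, and none passed. Pomc and Agrp had r = -0.15 (exact permutation p = 0.807, adjusted 0.908) and rho = 0.14 (exact permutation p = 0.803, adjusted 0.881), and r = -0.77 without F3-908 and P3-612. Pomc and Ghrh had r = 0.44 (exact permutation p = 0.388, adjusted 0.602) and rho = 0.31 (exact permutation p = 0.564, adjusted 0.793), and r = 0.84 without the same mice. Agrp and Ghrh had r = -0.28 (exact permutation p = 0.556, adjusted 0.714) and rho = 0.03 (exact permutation p = 1.0, adjusted 1.0), and r = 0.70 without F3-908 and P3-907. Over all 45 pairs, 29 had a positive r, 14 had an unadjusted p under 0.05 for r and 0 an adjusted one, and the median r was 0.61, or 0.38 without F3-612.

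The protein-coding genes most like each of the 9 peptide genes that passed the filter, over the 10 mice after centring within each digit, were found among 14784 genes and are given as a description; Ghrh was not compared. For Oxt they were Scx (r = 0.96) and H2-Q2 (r = 0.92), for Avp Prnp (r = 0.97), and for Hcrt Rcc1l (r = 0.98) and Bbc3 (r = 0.98). Trh was most like Scx (r = 0.92) and Oxt (r = 0.91), the 1 case in which another peptide gene was among the first 2. Pomc was most like Rnf121 and Leng1 (both r = 0.93), Agrp like Fmo2 (r = 0.92) and Adgre1 (r = 0.91), Pmch like Gpx3 (r = 0.95) and Rps27 (r = 0.94), Gnrh1 like Dock8 and Tox4 (both r = 0.95), and Cartpt like Ccdc153 (r = 0.94) and 9930104L06Rik (r = 0.92).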

How the data were processed

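Total brain RNA of the 10 Slc20a2-HO mice was sequenced from NEBNext Ultra libraries. Submitters' processing notes name CASAVA 1.8, fastp, HISAT2 2.0.5, featureCounts 1.5.0-p3 and DESeq2 1.20.0, with GRCm38/mm10; strand setting and annotation release are not given in the sources used here. The authors deposited raw counts per gene without normalization, and FPKM values made from them. All 10 peptide genes have the same coordinates in GENCODE M21.

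Counts were filtered by filterByExpr, scaled by TMM and tested by edgeR 4.0.16 (R 4.3.3, quasi-likelihood, Benjamini-Hochberg over all genes tested, threshold 0.05), FTY720 against placebo within digit 3, digit 3 against digit 1 with treatment as covariate, and their interaction. The standard error is the log2 fold change over the square root of F. Single genes were compared by two-sided exact permutation of log2 CPM (prior count 2), over 20 splits of 3 against 3 and 210 of 6 against 4. Each library is 1 mouse by its name, and the tests between groups take the mouse as the unit. Intervals and floors (3 counts) cover counting error only. Both fits were checked on simulated data.

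The peptide genes, the 13 gene lists and the tests were chosen with earlier results of these data known. Named were all peptide genes, Slc20a2, up to 4 called genes a list (any of the receptors, processing and pituitary lists), and the 2 most similar genes of each peptide gene; the Hox genes, Irs4, Lepr, Vcan, Rora, Adarb1 and Calb2 were named after their values were seen. Of the genes this rule names, 2 are not reported here. Alternatives were DESeq2 1.42.0, RLE or upper-quartile scaling, no filter, other covariates or mice, and each mouse left out.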

Additional observations from a re-analysis of the deposited data

Results flagged for a closer look

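Of 44 groups of 4 to 10 mice tested with Dixon's criterion on the level in CPM, 3 held a mouse far from the others; chance gives about 1 in 20. Trh in F3-612 was at 2.67 CPM, and the nearest of the digit 3 mice was at 5.82 CPM, a gap of 0.7475 of the range. Agrp in P3-907 was at 0.379 CPM (7 counts), and the nearest placebo mouse was at 0.949 CPM, a gap of 0.8667 of the range. Trh in P1-623 was at 14.5 CPM, and the nearest placebo mouse was at 6.88 CPM, a gap of 0.8778 of the range; P1-623 was the placebo group's only mouse with the digit 1.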

How the results depend on the processing

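No paired analysis was possible because the groups share only the number 612. Oxt, Hcrt and Trh remained called between the digits under all settings and with each mouse left out; Avp lost its call without 1 of 4 mice, Cartpt without P1-623 and Pomc without the treatment covariate. Pmch gained one with DESeq2, no filter or P3-612 left out. Genes called between the digits numbered 3106 in FTY720 mice alone, and 2593 (without P1-623) to 6000 (without P3-612) with each mouse left out, 2908 without F3-609; Gnrh1 ranged from -0.0022 to 0.31. For FTY720 against placebo, adjusted calls were 134 with no filter and 5 with DESeq2; unadjusted calls were 2340 with no filter, 738 with the leading digit of the mouse number as covariate, 461 with all 10 mice, 2256 with the name digit as covariate, and 388 (without F3-609) to 3896 (without P3-904), 399 without P3-907. Signs turned with all 10 mice for Oxt (0.34), Avp (0.47), Pmch (0.18), Trh (0.0064), Gnrh1 (0.10) and Cartpt (0.010), and for Gnrh1 with the leading digit (0.17) or name digit (0.16). With each mouse left out the log2 fold change ranged from -0.47 to 0.13 for Pmch, -0.48 to 0.036 for Trh, -0.26 to 0.15 for Gnrh1, -0.58 to 0.065 for Cartpt and -0.094 to 0.49 for Agrp. The interaction with no filter gave 26 adjusted and 905 unadjusted calls, Avp among them (-1.60, adjusted p = 0.000297). The causes were not tested. Depth limits Ghrh, Agrp, Gnrh1 and Pomc, with under 100 counts a mouse.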
